A study of Mus musculus with 81 samples.

Results

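In hybridoma-derived mature T cells of the mouse, 53092 of the 112017 regions listed for monomethylated lysine 4 of histone H3 (H3K4me1) overlapped no region of the ATAC-seq list, of the H3K27ac list or of the H3K4me3 list by as much as 1 base. These regions, called members here, made up 47.4% of the H3K4me1 list by number and 40.8 of its 110 Mb, which is 37.2% of its bases. They were chosen by position alone. Their absence from the 3 other lists is therefore the rule itself and not a result.

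H3K4me1 is laid down mainly by the methyltransferases KMT2C and KMT2D and marks enhancers and the shoulders of promoters. At an enhancer in use, ATAC-seq finds accessible DNA, and the acetyltransferases EP300 and CREBBP add H3K27ac to the neighbouring nucleosomes, while H3K4me3 marks promoters. H3K4me1 without H3K27ac is commonly described as primed chromatin, or as the trace of an element used earlier. RBPJ is the DNA-binding factor of the Notch pathway, which recruits corepressors without Notch signal and forms an activating complex with the Notch intracellular domain (NICD).

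The control line, labelled Control_sgRbpj, was compared with lines 2-12 and 2-14, both depleted of RBPJ with CRISPR/Cas9. H3K4me1, H3K27ac and H3K4me3 were each measured by ChIP-seq in 2 libraries of the control line and 2 of line 2-12, but the deposited lists name no line, so each may pool both. The ATAC-seq list is named for the control line (3 libraries), as is the first RBPJ list (3 libraries), and the second RBPJ list is named for cells that carry biotin-tagged wild-type NICD1 (BioNICD1_WT, 2 libraries). RNA was sequenced in 2 libraries each of the control line, line 2-12 and line 2-14. The labels do not say whether a line is 1 clone or whether replicates are separate cultures, so the RNA p-values measure only the spread between these libraries. Regions of 1 list are not replicates, and no test was made over regions. The intervals given for RBPJ shares treat regions as independent and cover counting error only.

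The lists hold a start and an end per region and a score of 0 throughout, so the height of a region and the depth behind it are unknown. RNA libraries held 2377028 to 5998832 counts, fewest in replicate 1 of the control and most in replicate 2 of line 2-14. All 8 T cell markers checked, among them Cd3e, Thy1 and Lck, had counts in 6 of 6 libraries, with a summed level of 741 to 974 CPM (counts per 1000000, with library sizes scaled by TMM factors). The B cell marker Ms4a1 and the myeloid marker Cd14 were at 0 in these libraries. The summed level was at most 0.898 CPM for 3 B cell markers, 4.37 CPM for 4 myeloid markers and 0.827 CPM for 3 fibroblast markers. For the erythroid markers Hba-a1 and Hbb-b1, mostly the former, it was 10.8 to 13.2 CPM in the control and 0.736 to 3.59 CPM in the edited lines.

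Members were short. Their median length was 698 bases, with the middle of the distribution from 469 to 985 bases (25th to 75th percentile) and 5% of them above 1498 bases. The other 58925 H3K4me1 regions had a median of 1047 bases and a 95th percentile of 2448 bases. Among the other classes, the median ran from 893 bases in regions that met H3K4me3 alone to 1310.5 bases in open regions with H3K27ac, where open means that the region overlapped an ATAC-seq region. A longer region meets other regions more easily, so the rule itself favours short members. When all H3K4me1 regions were ordered by length and divided into 10 equal parts, 63.8% of the shortest part (38 to 351 bases) and 10.5% of the longest part (1758 to 9984 bases) were members. The share fell at each step between them, and was 57.2% among regions of 720 to 846 bases.

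The longest members shared a feature of position that the rule did not use. All of the 10 longest, from 7728 to 9072 bases, ended exactly at a multiple of 10000 in the coordinates of the list. The longest of these is chr13:95870929-95880000, 36123 bases from the nearest open or active region, where open or active stands for any region of the 3 lists. The next are chr16:17871248-17880000 and chr5:104811775-104820000, at 4382 and 723 bases from one. Of the 64 members of at least 4000 bases, 63 ended at such a position, as did 46 of 46 members of at least 5000 bases. Over all members the count was 261 (0.492%), with a median length of 1866 bases, against 696 bases for the remaining members. Such ends were not particular to members. Of the other 58925 H3K4me1 regions 269 (0.457%) ended so, and 39 of the 53 of at least 5000 bases (73.6%). Only 10 members began at such a position.

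The same ends occurred in other lists. In the whole H3K4me1 list 530 regions ended at a multiple of 10000, where evenly spread ends would give 11.2. The count was 270 of 46506 in H3K27ac, 41 of 42879 in H3K4me3, 24 of 3735 in the BioNICD1 RBPJ list and 5 of 1752 in the control RBPJ list. It was 2 of 47748 in the ATAC-seq list, where even spread would give 4.77. What set these ends was not tested. Leaving such regions out of every list removed 261 members, added 158 and left 52989. The longest members without such an end were chr5:148244193-148248636 (4444 bases) and chr5:141096660-141100560 (3901 bases), which were picked after their ends had been seen.

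**Figure D1:**
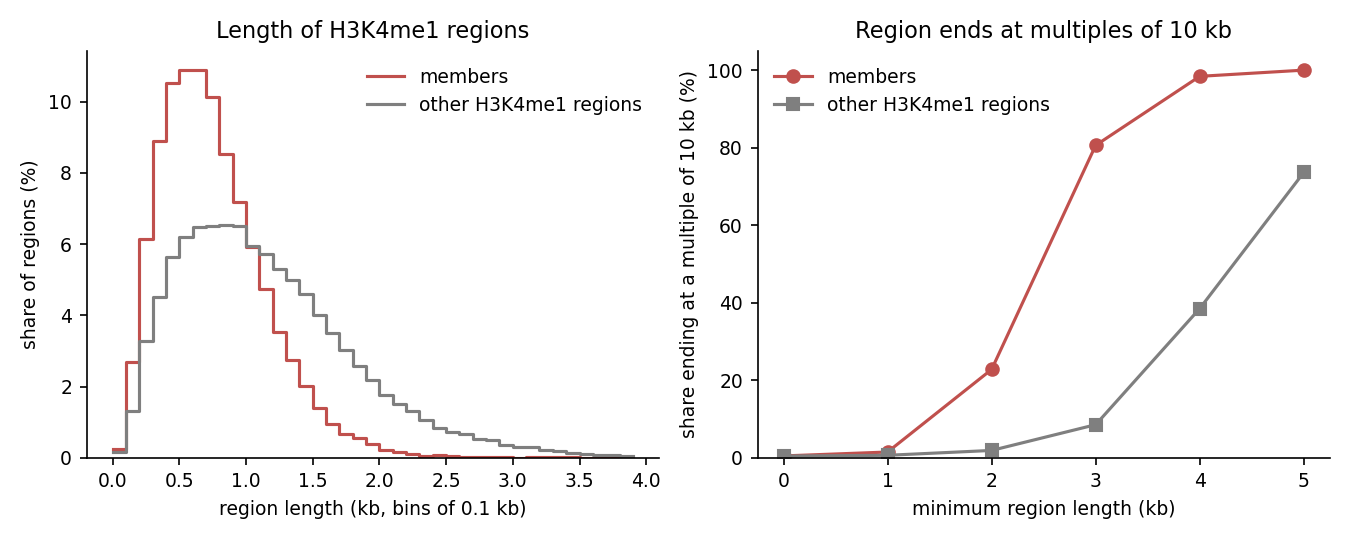
Left, share of H3K4me1 regions (%) by region length in bins of 0.1 kb, up to 4 kb, for members (red) and the other H3K4me1 regions (grey). Right, share of regions of at least a given length (kb) whose end lies at a multiple of 10 kb; it reaches 98.4% of members and 38.5% of other regions at 4 kb.

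Most members lay outside the immediate flanks of open or active chromatin. The median distance from a member to the nearest region of the 3 lists was 4553 bases, with 1397.75 bases at the 25th and 12647.75 bases at the 75th percentile. In all, 10424 members (19.6%) lay within 1 kb of such a region, 27693 (52.2%) within 5 kb and 36850 (69.4%) within 10 kb. Another 16242 members (30.6%) were more than 10 kb away and 1055 (1.99%) more than 100 kb away. These distances use the lists of the rule and describe the members only.

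By list, the median distance was 6494.5 bases to ATAC-seq, 7669.5 bases to H3K27ac and 8701 bases to H3K4me3. The order differed close to the members. Within 1 kb, 7477 members had an H3K27ac region, 6533 an H3K4me3 region and 5485 an ATAC-seq region, so accessible sites were the least frequent at short range and the most frequent at 10 kb (61.4% of members, against 56.1% for H3K27ac and 53.6% for H3K4me3). Open H3K4me1 regions without H3K27ac or H3K4me3, the class nearest to members in its marks, lay farther from both marks, with medians of 12075 bases to H3K27ac and 11243 bases to H3K4me3.

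**Figure D2:**
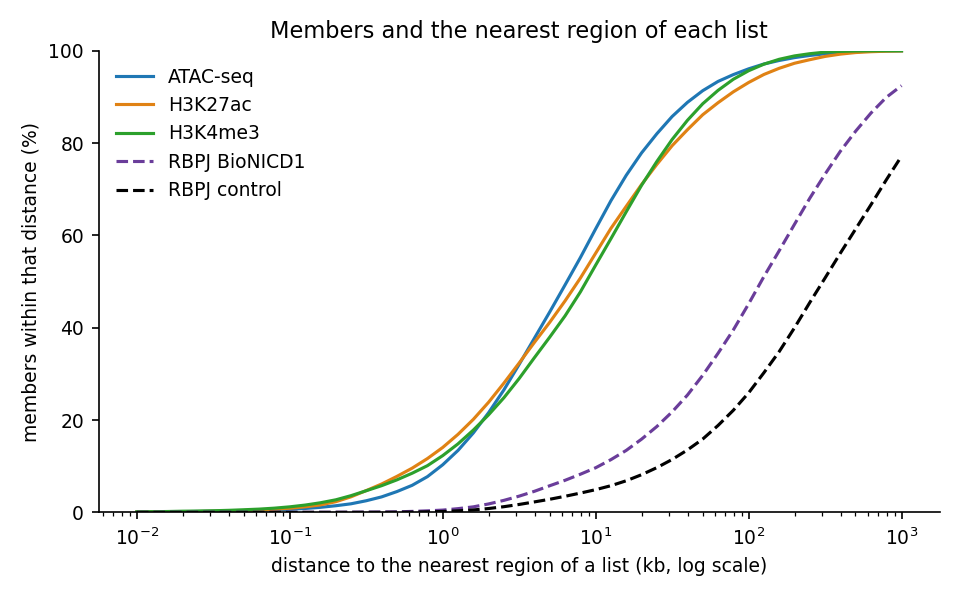
Share of the 53092 members (%) that have a region of each list within a given distance (kb, log scale); solid lines are the 3 lists of the rule and dashed lines the RBPJ lists. The solid lines run close together and the RBPJ lines lie far to the right, with 9.68% of members within 10 kb of a BioNICD1 RBPJ region.

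Of the 10424 members within 1 kb of open or active chromatin, 9765 had it on 1 side and 659 (6.32%) on both. For 4476 of them only 1 of the lists came that close, which was H3K27ac for 1917, H3K4me3 for 1341 and ATAC-seq for 1218. For 3123 members all 3 lists came within 1 kb. Members on such a flank thus mostly had it on a single side, and for most of them at least 1 of the lists stayed farther than 1 kb away.

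Members were also placed against the rest of the H3K4me1 list. The nearest H3K4me1 region that is no member was within 1 kb for 9667 members (18.2%) and within 5 kb for 24230 (45.6%), with a median distance of 6049 bases. When H3K4me1 regions were chained over gaps of at most 1 kb, 42111 members (79.3%) fell into chains made of members only, and 35074 (66.1%) stood alone. Over gaps of at most 5 kb the share in chains of members only was 50.1%, and 26505 members (49.9%) were chained to a region that met another list.

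Members also lay side by side. There were 7876 cases in which 2 neighbouring members were separated by at most 2 kb, with a median gap of 468 bases. In 7815 of these (99.2%) the gap met no region of the 3 lists. An ATAC-seq region lay in 35 gaps, and in 16 of those without H3K27ac or H3K4me3. The rule nearly fixes these counts, since members overlap no ATAC-seq region and such regions, with a median of 643 bases, had to lie within the gap. The chains named here were picked by their number of members after the chains had been counted. The one with the most, at gaps of up to 5 kb, was chr9:43996846-44012974, where 10 members covered 5513 of 16129 bases and the nearest open or active region was 5415 bases away. The next, with 7 members each, were chr8:118007192-118020888, 6750 bases from such a region, and chr19:60858066-60871634. The chain on chromosome 19 either abuts an open or active region or holds one in a gap between its members, which its distance of 0 does not tell apart. No region in these 3 chains ended at a multiple of 10000.

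Few regions lay within 10 bases of the edge of the rule, though many that it kept out were covered only in part. Of the members, 11 abutted a region of the 3 lists with no base between them and 138 more were 1 to 10 bases away. Among those that abut one are chr1:184343704-184344184 and chr10:117600047-117600254 beside H3K27ac, chr11:52049670-52049967 beside H3K4me3 and chr12:27000263-27001524 beside an ATAC-seq region. On the other side, 134 H3K4me1 regions were kept out by an overlap of 1 to 10 bases, and chr1:88330111-88330526 and chr11:22568024-22569217 by 1 base. Regions kept out had a median of 62.6% of their length covered, and 20472 of them had less than 50% covered.

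The members farthest from open or active chromatin stood in wide stretches with few listed regions. The farthest was chr3:45770126-45770742 (617 bases), 750751 bases from any region of the 3 lists and 579223 bases from the next H3K4me1 region. Then came chr1:170248876-170249866 at 681300 bases and chr14:98653197-98654709 at 614265 bases. The next, chr2:42498716-42499816 and chr2:42506725-42507837, are neighbours 6908 bases apart, at 600967 and 592946 bases from open or active chromatin.

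Members were spread over all chromosomes in near proportion to the other H3K4me1 regions. Over chromosomes 1 to 19 and X, the share of H3K4me1 regions that are members had a median of 47.6% and ran from 43.3% on chromosomes 3 and 15 to 54.1% on chromosome 13. Chromosome X was next to the top, with 54.0% (2035 of 3767). Relative to the stretch that the lists span, chromosome 11 held the most members, 30.9 per Mb, and chromosome X the fewest, 12.2 per Mb. On chromosome 13 there were 24.4 members and 20.6 other H3K4me1 regions per Mb, and on X 12.2 and 10.4. On the other chromosomes members were the smaller group. The list held 1 region on Y, which is a member, and 1 on the mitochondrial genome, which is not.

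**Figure D3:**
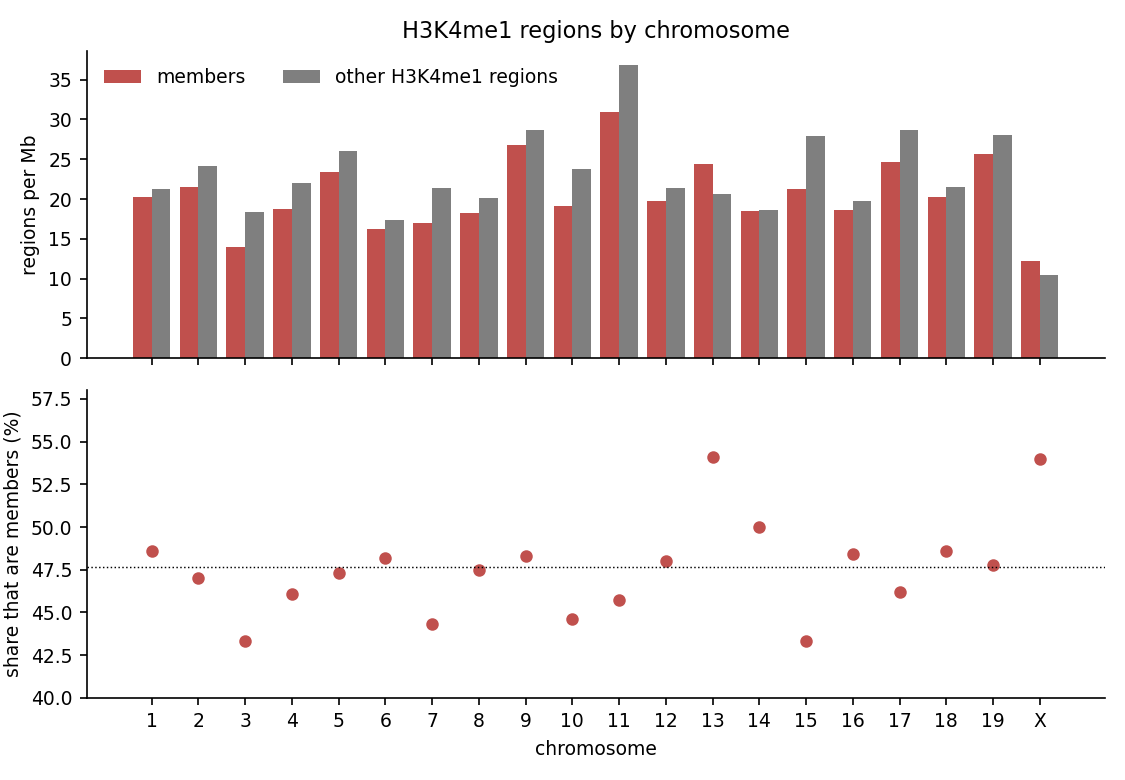
Top, members (red) and other H3K4me1 regions (grey) per Mb of each chromosome, measured over the stretch that the lists span. Bottom, share of H3K4me1 regions that are members (%), on an axis from 40 to 58, with the median of 47.6% as a dotted line; chromosomes 13 and X are highest and 3 and 15 lowest.

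In windows of 1 Mb, the number of members followed the number of other H3K4me1 regions. Across 2649 windows Pearson's r between the counts was 0.910 and Spearman's rho 0.946, as a description, since windows share the same lists and neighbours are not independent. A window held a median of 15 members, and 84.3% held at least 1. The windows with the most were on chromosome 18 from 39000001 to 40000000 (92 members and 93 other H3K4me1 regions), on chromosome 15 from 58000001 to 59000000 (89 and 88) and on chromosome 15 from 36000001 to 37000000 (88 and 99). These windows also held 53, 62 and 69 ATAC-seq regions, so the densest groups of members stood among open regions. Of 1809 windows with 10 or more H3K4me1 regions, members made up 80% or more in 14 and 20% or less in 7. Another 74 windows held members but no ATAC-seq region, with 156 members in all.

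RBPJ, whose lists the rule did not use, was rare in members. Since nearly all RBPJ regions overlap the ATAC-seq list, which the rule did use, these shares are not independent of it and stand as a description. In the control line 2 of 53092 members (0.00377%, exact 95% interval 0.000456 to 0.0136%) overlapped an RBPJ region, and with BioNICD1 21 did (0.0396%, 0.0245 to 0.0605%). Among the other H3K4me1 regions the shares were 0.417% (246 regions) and 1.26% (742 regions). Members are also shorter, and what part length has in these shares was not tested. Per Mb of listed sequence, 0.0491 and 0.515 members overlapped RBPJ, and 3.57 and 10.8 of the other H3K4me1 regions.

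Open H3K4me1 regions without H3K27ac or H3K4me3 differ from members, by the lists, only in that they overlap ATAC-seq. Of those 8225 regions, 14 (0.170%) met an RBPJ region of the control line and 45 (0.547%, 0.399 to 0.731%) one with BioNICD1. Since nearly all RBPJ regions overlap the ATAC-seq list, a higher share than in members is nearly fixed by how the classes were defined. In acetylated regions without an ATAC-seq or H3K4me3 region the interval overlapped that of members, with 0 and 5 of 7577 overlapping (0.0660% with BioNICD1, 0.0214 to 0.154%). Regions that met H3K4me3 alone had higher shares than members, with 2 and 8 of 7742 overlapping (0.0258% and 0.103%). Their intervals also overlapped those of members, which does not show that the shares are equal. The intervals for H3K4me3 alone were 0.00313 to 0.0933% in the control list and 0.0446 to 0.204% with BioNICD1. Regions with both H3K27ac and H3K4me3 but no ATAC-seq region had higher shares, with 5 and 22 of 7912 overlapping. These were 0.0632% (0.0205 to 0.147%) in the control list and 0.278% (0.174 to 0.421%) with BioNICD1. A share below that of every open class was thus not particular to members, though members had the lowest share in the BioNICD1 list. Open regions with both H3K27ac and H3K4me3 had the highest shares, 1.05% and 3.05%. Median distances to RBPJ were close in members and in open regions without these marks. Members lay at a median of 305531 bases from a control RBPJ region, and open regions without H3K27ac or H3K4me3 at 304411 bases.

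**Figure D4:**
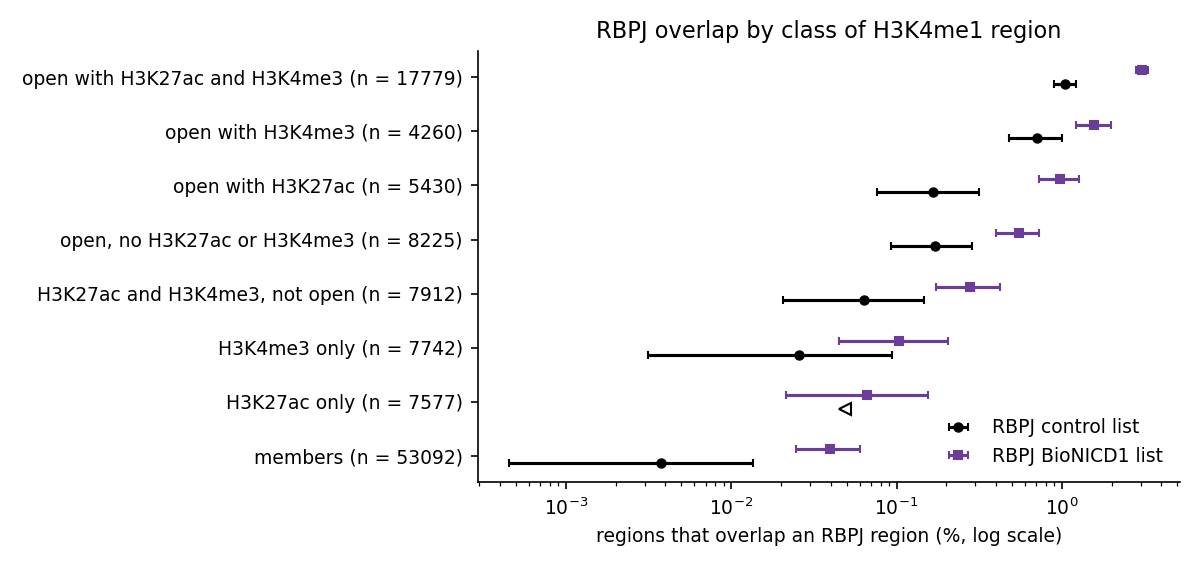
Share of each class of H3K4me1 region (%, log scale) that overlaps an RBPJ region in the control list (black circles) or the BioNICD1 list (purple squares), with exact 95% binomial intervals. The open triangle is the upper bound of the interval where no region overlapped. Members have the lowest share in the BioNICD1 list, 0.0396%, with an interval that overlaps those of regions with H3K27ac only and with H3K4me3 only.

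Seen from RBPJ, the lists were almost wholly within open chromatin: 99.0% of 1752 control regions and 96.5% of 3735 BioNICD1 regions overlapped an ATAC-seq region. Only 2 (0.114%) and 20 (0.535%) overlapped a member. RBPJ regions outside all 3 lists numbered 11 and 91, and members held 1 and 17 of them (9.09% and 18.7%). RBPJ regions within 1 kb of a member were more frequent, 109 and 261, and 106 and 241 of these met open or active chromatin themselves.

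The 22 members with RBPJ in either list were examined singly. One of them, chr13:58585943-58586374, named after its values were seen, was in both lists: the RBPJ region of the control line was chr13:58586057-58586305 and that with BioNICD1 chr13:58586101-58586286, both inside the member, which lay 3020 bases from an ATAC-seq region and 81066 bases from H3K27ac. The second member with control RBPJ, chr6:47787502-47789436, lay within an RBPJ region of 4463 bases that itself ended at a multiple of 10000 and met open or active chromatin.

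In the BioNICD1 list, 12 RBPJ regions lay wholly inside a member. They were short, such as 278 bases in chr5:112116149-112116996, a member 176678 bases from open or active chromatin, or 139 bases in chr4:132163874-132164711, at 15301 bases. Others inside a member were in chr14:60690780-60692140, at 11806 bases, chr2:164009698-164010769, at 3658 bases, and chr5:121137906-121139345, at 1724 bases. By contrast, 4 RBPJ regions of this list ended at a multiple of 10000 and spanned 5212 to 9183 bases, and 5 members fell within them, 2 of them neighbours under 1 RBPJ region on chromosome 8. Without regions that end so, 16 members overlapped RBPJ.

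Since the lists name no gene and their build was not among the annotations used here, members could not be tied to genes. RNA was therefore read only for Rbpj and for listed chromatin enzymes and their partners, in the control line and lines 2-12 and 2-14. The listed genes act in H3K4 methylation and its removal, H3K27 acetylation and its removal, Polycomb repressive complex 2 and BAF chromatin remodelling. H3K4me1 itself was not measured in line 2-14. Rbpj, the targeted gene, was at 182 and 133 CPM in the control libraries, 44.2 and 31.4 CPM in line 2-12 and 59.6 and 41.8 CPM in line 2-14. The control libraries stood above all 4 edited libraries, while the edited lines overlapped, and Rbpj fell by 1.85 log2 units in both edited lines together (SE 0.211, adjusted p = 0.0043, edgeR quasi-likelihood test with Benjamini-Hochberg adjustment, n = 4 and 2). In this contrast 718 of 11566 genes rose (6.21%) and 426 fell (3.68%). With the replicate number as a block 2120 rose (18.3%) and 2140 fell (18.5%). Rbpj passed with any 1 library left out (adjusted p = 0.0027 to 0.0376).

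The writers of H3K4me1 were present in all libraries. Kmt2c, which encodes one of the main H3K4 monomethyltransferases, was at 171 and 178 CPM in the control, 244 and 168 CPM in line 2-12 and 220 and 165 CPM in line 2-14, and did not pass (log2 0.19, SE 0.186, adjusted p = 0.527, edgeR). Kmt2d, its paralogue, was at 156 and 129 CPM in the control, 330 and 157 CPM in line 2-12 and 298 and 175 CPM in line 2-14. All 4 edited libraries were above the control, replicate 2 of line 2-12 by about 1 CPM, and replicate 1 was far above replicate 2 in both lines. It did not pass (log2 0.75, SE 0.342, adjusted p = 0.192, edgeR) except with the block (0.66, adjusted p = 0.00665) and without the filter on low counts (0.75, adjusted p = 5.63e-07). Kdm6a, which encodes the H3K27 demethylase of their complex, was at 272 and 221 CPM in the control, 210 and 199 CPM in line 2-12 and 213 and 212 CPM in line 2-14. The control was above all 4 edited libraries, and the difference did not pass (log2 -0.24, SE 0.112, adjusted p = 0.205, edgeR). Without replicate 2 of the control it passed (-0.39, adjusted p = 0.0395).

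Of 39 genes for these enzymes and their partners, 0 rose and 3 fell in both edited lines together, beside 6.21% and 3.68% of all genes tested. Their median log2 difference was 0.02, against 0.00 over all genes. At an unadjusted p under 0.05, 6 were higher and 5 lower, beside 15.8% and 14.0% of all genes. DESeq2 called 0 up and 3 down, the same 3 genes, beside 6.44% and 4.29% of all genes. With the block 8 rose and 5 fell, beside 18.3% and 18.5% of all genes. Of the 6 listed genes of the H3K4me1 writer complex, 3 rose and 0 fell with the block. Without it 0 passed, by edgeR with the filter on low counts or by DESeq2. Calls with the block were not particular to this complex: 2 of 6 other H3K4 writer genes rose and 3 of 6 genes for H3K4 demethylases and partners fell.

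The genes that fell were the H3K4me3 demethylase gene Kdm5b, Rcor1, which encodes the CoREST partner of the demethylase KDM1A, and Ezh1, a methyltransferase gene of Polycomb repressive complex 2. Kdm5b was at 242 and 228 CPM in the control, 138 and 105 CPM in line 2-12 and 177 and 116 CPM in line 2-14 (log2 -0.82, SE 0.188, adjusted p = 0.0428, edgeR). Rcor1 went from 180 and 168 CPM to 121 to 136 CPM (log2 -0.46, SE 0.0953, adjusted p = 0.0319) and Ezh1 from 158 and 157 CPM to 113 to 123 CPM (log2 -0.41, SE 0.0871, adjusted p = 0.0347). For each of the 3 the control libraries were above all 4 edited libraries. With 1 library left out at a time the log2 differences stayed at -0.99 to -0.68 for Kdm5b, -0.52 to -0.41 for Rcor1 and -0.42 to -0.40 for Ezh1, while most of the calls were lost. The adjusted p ran from 0.0159 to 0.174 for Kdm5b, 0.033 to 0.129 for Rcor1 and 0.0389 to 0.141 for Ezh1. Kdm5b passed only without replicate 1 of line 2-14, and Rcor1 and Ezh1 only without replicate 2 of the control.

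Kdm1a, which encodes the eraser of mono- and dimethylated H3K4, ran from 185 to 209 CPM over the 6 libraries, with overlapping groups, and did not pass (log2 -0.07, SE 0.0889, adjusted p = 0.617, edgeR). The acetyltransferase gene Ep300 had a log2 difference of 0.19 (adjusted p = 0.57, edgeR). Crebbp was at 114 and 117 CPM in the control and 132 to 175 CPM in the edited libraries, which did not overlap, and did not pass (log2 0.37, SE 0.111, adjusted p = 0.0828, edgeR) except with the block (0.36, adjusted p = 0.0116).

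**Figure D5:**
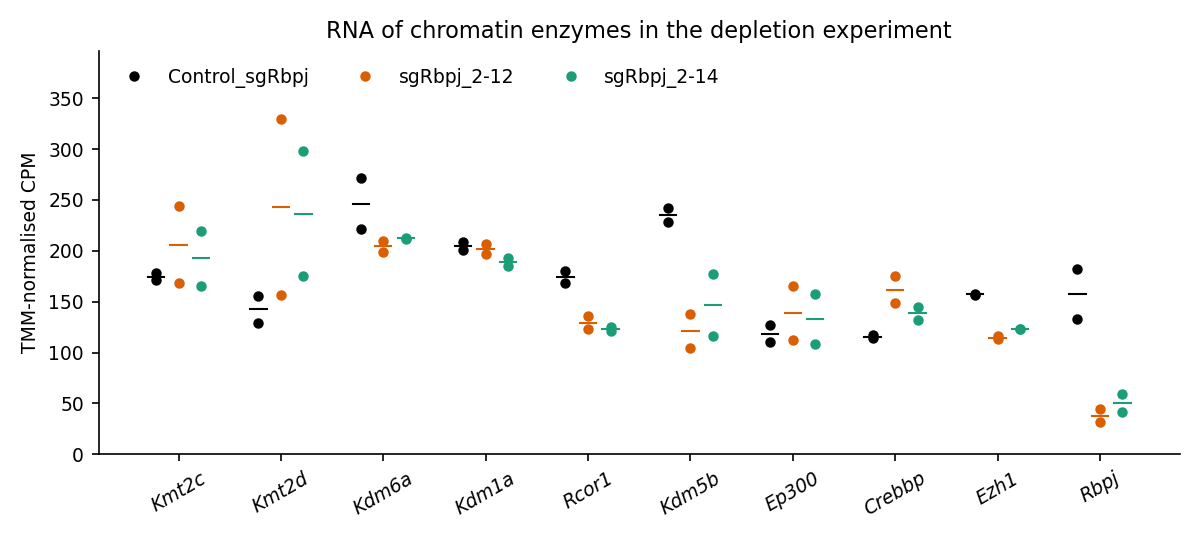
Level in TMM-normalised CPM of 10 genes in each RNA library (points) with the group mean (line), for the control line (black), line 2-12 (orange) and line 2-14 (green), 2 libraries each. Kdm5b, Rcor1, Ezh1, Rbpj and Kdm6a lie lower in all 4 edited libraries than in the control, Kdm6a without passing the test, and Kmt2d is spread widely within both edited lines.

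In line 2-12, the edited line in which the marks were also measured, 559 genes rose (4.83%) and 246 fell (2.13%), or 1968 (17.0%) and 1704 (14.7%) with the block. Of the 39 genes 0 rose and Ezh1 alone fell (log2 -0.46, SE 0.102, adjusted p = 0.0469, edgeR, n = 2 and 2); DESeq2 did not call it (adjusted p = 0.0521) and called Kdm5b alone (-0.96, adjusted p = 0.00184). With 1 library left out at a time, Ezh1 passed only without replicate 2 of the control, with an adjusted p of 0.0422 to 0.272. DESeq2 called 5.08% of all genes up and 2.86% down in this contrast. At an unadjusted p under 0.05, 3 of the 39 were higher and 5 lower, beside 15.0% and 11.0% of all genes. With the block 8 rose and 5 fell. Among them Kmt2d went from an adjusted p of 0.25 to 0.0128 (log2 0.67 with the block), Crebbp from 0.0718 to 0.0072 (0.47), Kdm5b from 0.0553 to 0.000569 (-0.98) and Rcor1 from 0.0728 to 0.0106 (-0.42), all by edgeR. In the difference between lines 2-12 and 2-14, edgeR called 0 of the 39 genes, beside 0.484% of all genes, and 0 with the block, beside 2.44%. At an unadjusted p under 0.05 it was 0 of 39, beside 4.55% of all genes, and by DESeq2 0, beside 0.942%.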

How the data were processed

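The authors deposited lists of regions for ATAC-seq, H3K27ac, H3K4me1, H3K4me3 and RBPJ, and a table of raw read counts per gene symbol (24391 symbols). Per the submitters' processing notes the build is mm9 and the tools TopHat2 2.1.1, Picard and deepTools, with no roles given. Peak caller, read counter and the merging of replicates are not given in the sources used here. The available RefSeq tables are on GRCm38.p6; 5.37% of their promoter windows overlapped an H3K4me3 region, and 3.92% did after a shift of 100 kb. No coordinates were carried over, so gene positions, GC content and motifs were not analysed here, and no sequence is printed.

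A member overlaps no region of the 3 lists by 1 base or more. Distances run from edge to edge, and printed starts count from 1. Overlap code (Python 3.11.15) was tested on simulated regions. Of 65 count columns, the 6 of the depletion experiment were used and 59 were not. They were fitted in edgeR 4.0.16 (R 4.3.3) with TMM, filterByExpr and 1 mean per group, two-sided, at an adjusted p of 0.05; DESeq2 1.42.0 was an alternative, and the fit was tested on simulated counts. Differences are log2 values, and their SE was derived from the F statistic. Same-number libraries correlated in their deviations at r = 0.455 to 0.636, which take 3 distinct values. A call of a named gene that a block on the replicate number changes is therefore given with both values, as are the counts of called genes. Listed genes that passed only with the block enter by count and are otherwise not named. The labels name no shared batch. Replicates differed by more than sampling noise (chi-square per gene 6.21 to 9.76).

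Members, gene lists and tests were chosen with earlier results of these data known. Regions named are the 10 longest members, those with RBPJ, the 5 farthest from and closest to open or active chromatin and the 3 densest windows, of which examples are printed. Genes named are Rbpj, Kmt2c, Kmt2d, Kdm6a, Kdm1a, Ep300, Crebbp and the listed genes that passed. Some cell type markers are not reported here.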

Additional observations from a re-analysis of the deposited data

How the results depend on the processing

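The number of members stayed within 1.5 times of 53092 in the 8 settings tried for it (38011 to 73564). When only coverage of at least 50% kept a region out, the median length was 794 bases, 42.0% of members lay within 1 kb of open or active chromatin, 37.4% within 5 kb of an H3K4me1 region that is no member, and 242 overlapped RBPJ. With members more than 1 kb from such chromatin these were 732 bases, 0% (by construction) and 36.9%. With regions of at least 500 bases they were 843 bases, 14.7%, 34.5% and 13 with RBPJ, and with regions joined over 1 kb 804 bases, 6.85% and 31.4%. RBPJ regions widened by 500 bases met 77 members. Leaving out regions that end at a multiple of 10000, chosen after seeing the data, gave 52989 members, a median of 696 bases, 19.5%, 45.4% and 16 members with RBPJ in place of 22.

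Without the filter on low counts 2671 genes changed in both edited lines and 2126 in line 2-12, and with the replicate block 4260 and 3672. Each library left out moved both counts by over 1.5 times. Without replicate 1 or 2 of the control they were 379 and 2511 in both edited lines (line 2-12 alone: 293 and 1914), without those of line 2-12 497 and 499 (259 and 264) and without those of line 2-14 581 and 482 (515 and 448); the lone library left in a group is then assumed to vary like the others. Of 200 values of named genes under these alternatives, 163 stayed on their side of the threshold, 21 lost and 16 gained the call, and none that was called changed direction. GC content, motifs and gene positions were not run.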
